A study of Mus musculus with 12 samples.

Results

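The genes described here make ceramide and turn it into the first complex sphingolipids. The set names 10 mouse genes: the ceramide synthases Cers1, Cers2, Cers4, Cers5 and Cers6, the serine palmitoyltransferase subunits Sptlc1 and Sptlc2, the dihydroceramide desaturase Degs1, the glucosylceramide synthase Ugcg and the sphingomyelin synthase Sgms1. A member is a probe set (the group of array probes read as 1 value) annotated to 1 of these symbols, and where a gene had more than 1, the probe set with the highest mean over the 12 arrays gave the gene's value. By that rule 9 members were found among 22180 named genes. The probe set for Cers1 is annotated to Gdf1 and Cers1 together, so Cers1 was not analysed here. The mean over all arrays that picked the probe sets is not used as a result.

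The study profiled cells of mouse tumours that model Group 3 medulloblastoma driven by MYC, a cerebellar tumour of childhood, to ask what the histone deacetylase inhibitor panobinostat (LBH589) does to their gene expression. Cells called MP were taken from the cerebella of NSG mice, dissociated and cultured in NeuroCult medium with proliferation supplement. NSG mice lack mature T, B and NK cells but keep myeloid cells. Each of the 3 tumours MP525, MP567 and MP570 gave 1 array in each of 4 groups: 0.00025% DMSO for 6 h, 25 nM LBH589 for 6 h, 0.00025% DMSO for 12 h and 25 nM LBH589 for 12 h. All 12 cultures therefore come from 3 tumours of the same MYC-driven model, and the labels describe no cell type other than MP tumour cells. An array value is a log2 expression value, so a difference of 1 is a doubling. Array medians lay between 7.10 and 7.21.

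Sphingolipids start in the endoplasmic reticulum, where serine palmitoyltransferase, built from Sptlc1 with Sptlc2 or Sptlc3, condenses serine with palmitoyl-CoA. After a reduction step a ceramide synthase adds a fatty acid to the sphingoid base, and each isoform prefers its own acyl chain lengths: Cers2 uses very-long-chain acyl-CoAs, while Cers5 and Cers6 make mainly palmitoyl ceramides. Degs1 then introduces the double bond that turns dihydroceramide into ceramide, which Ugcg glucosylates and Sgms1 converts to sphingomyelin. In the brain these lipids build myelin and gangliosides, and Cers2 is known for its part in myelin lipids.

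The promoters of the members whose values differed most, and of Cers6, which was not called with LBH589 at either time on the deposited scale, are shown first because the drug acts on chromatin. They are RefSeq windows of mouse build GRCm38.p6, 300 bases long, from 250 bases before to 50 bases after an annotated transcript start, written 5′ to 3′ on the gene's strand. Capitals mark matches to CACGTG, an E-box that MYC with MAX can bind, and to GGGCGG, a GC box, on either strand, so that CCGCCC is the GC box on the other strand. The windows are Cers2 at chr3:95314940-95315239 on the + strand, Cers5 at chr15:99772466-99772765 on the - strand, Cers6 at chr2:68861191-68861490 on the + strand and Sptlc2 at chr12:87388306-87388605 on the - strand.
Cers2: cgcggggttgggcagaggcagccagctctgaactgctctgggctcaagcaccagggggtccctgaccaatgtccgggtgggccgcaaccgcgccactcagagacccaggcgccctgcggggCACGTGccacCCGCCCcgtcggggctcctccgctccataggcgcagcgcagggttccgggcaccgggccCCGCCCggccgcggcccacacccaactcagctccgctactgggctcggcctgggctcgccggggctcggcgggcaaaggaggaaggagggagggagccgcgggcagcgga
Cers5: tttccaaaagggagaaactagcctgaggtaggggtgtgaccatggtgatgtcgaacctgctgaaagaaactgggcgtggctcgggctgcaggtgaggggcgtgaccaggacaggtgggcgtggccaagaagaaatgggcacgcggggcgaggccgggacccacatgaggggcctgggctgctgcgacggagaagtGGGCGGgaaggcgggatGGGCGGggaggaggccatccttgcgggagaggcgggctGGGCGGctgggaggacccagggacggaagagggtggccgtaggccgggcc
Cers6: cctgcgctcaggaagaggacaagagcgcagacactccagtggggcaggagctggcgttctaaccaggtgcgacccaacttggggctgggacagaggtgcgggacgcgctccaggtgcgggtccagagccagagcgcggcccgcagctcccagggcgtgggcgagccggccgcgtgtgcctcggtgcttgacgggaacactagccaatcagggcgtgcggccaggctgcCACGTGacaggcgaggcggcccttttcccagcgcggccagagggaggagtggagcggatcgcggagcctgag
Sptlc2: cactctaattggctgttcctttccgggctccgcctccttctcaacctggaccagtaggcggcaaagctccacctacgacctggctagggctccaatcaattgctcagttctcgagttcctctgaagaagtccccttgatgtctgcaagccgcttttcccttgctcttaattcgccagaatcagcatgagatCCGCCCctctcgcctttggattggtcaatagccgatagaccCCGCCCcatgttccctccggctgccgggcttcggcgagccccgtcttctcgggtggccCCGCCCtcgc
In these 4 windows no match of one motif overlapped a match of the other. The E-box was found in 3 of the 14 windows listed for the 10 named genes (21.4%), in Cers2, Cers6 and Degs1, against 7.2% of all 32851 windows. The GC box was found in 9 of the 14 (64.3%), against 35.7% of all windows. Both motifs contain the bases CG. The printed windows of Cers2, Cers5, Cers6 and Sptlc2 hold 30, 20, 28 and 19 CG pairs, against a median of 7 over all windows. Among the 14 the lowest count is 4. Sgms1 alone gives 4 of the 14 windows. The part of base composition in these shares was not tested. Another window listed for Cers2, at chr3:95318580-95318879 on the + strand, has neither motif and is not printed. Cers2, with both motifs in the window shown, and Cers6, with the E-box alone, had different responses, as described below. A match of letters describes the window only.

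Across the whole table LBH589 changed many genes, and the members are read against that background. A gene was called where limma's test over all 18652 tested genes gave a Benjamini-Hochberg adjusted p under 0.05, with the 4 group means and no term for tumour. At 6 h 15.8% of tested genes were called, 8.49% higher and 7.31% lower with LBH589, and at 12 h 18.2% were called, 9.13% higher and 9.07% lower. Scaling each array to reference genes moved the split of calls from 1584 higher and 1364 lower to 2027 and 926 at 6 h, and from 1703 and 1692 to 3022 and 975 at 12 h. It moved the median change of all genes at 12 h from 0.01 to 0.16 and at 6 h from -0.02 to 0.06. With the tumour as a block, which takes out each tumour's own level, 34.0% of genes were called at 6 h and 37.1% at 12 h. Of the 9 members, 2 were called at 6 h, Cers2 lower and Sptlc2 higher, and 1 at 12 h, Cers2. With the block 6 members were called at 6 h and 4 at 12 h, beside those higher shares of all genes. Averaged over both times 5 members were called, Cers2, Cers5 and Ugcg lower and Sptlc1 and Sptlc2 higher, against 30.1% of all genes, and with the block 6, against 45.9%. The arrays hold bulk RNA, in which fewer cells of a type and less RNA per cell cannot be told apart.

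**Figure D1:**
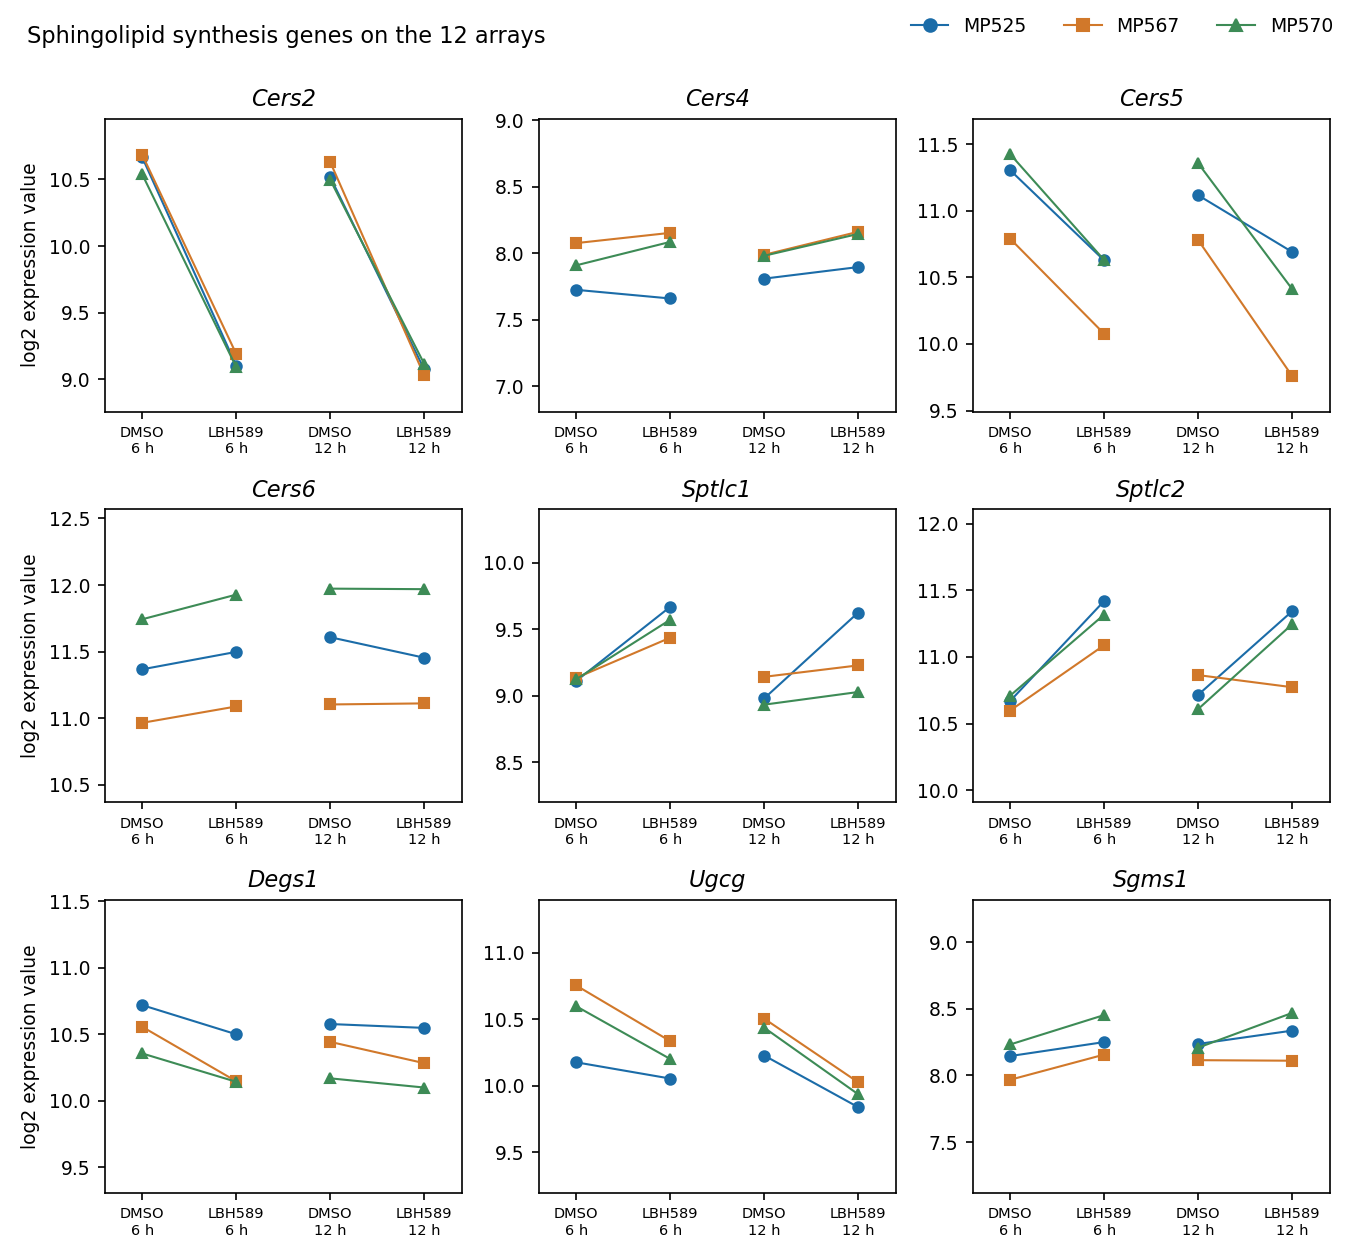
Log2 expression value (vertical axis, the same span in every panel) of the 9 members on each of the 12 arrays, by treatment and time (horizontal axis), with lines joining the DMSO and LBH589 arrays of 1 tumour at 1 time. Cers2 lies between 10.50 and 10.69 on the DMSO arrays and between 9.03 and 9.19 on the LBH589 arrays, while Cers6 keeps the order of the tumours under both treatments.

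Serine palmitoyltransferase, which starts the pathway, had higher values for both subunits at 6 h. Sptlc2, the catalytic partner subunit, measured 10.67, 10.60 and 10.71 in DMSO at 6 h (MP525, MP567 and MP570, in that order here and below) and 11.42, 11.09 and 11.32 in LBH589 at 6 h. Every LBH589 array was above every DMSO array at that time. The group means were 10.66 ± 0.06 and 11.28 ± 0.17 (SD, n = 3), and Sptlc2 rose by 0.62 ± 0.15 (log2, SE), 1.53-fold, with a limma adjusted p of 0.0159. That call was lost without the DMSO 6 h array of MP567 (adjusted p = 0.0530) or the LBH589 6 h array of MP525 (0.0663) or MP570 (0.0583), and without tumour MP525 (0.153) or MP570 (0.160), while the rise stayed between 0.54 and 0.71. With the tumour block the adjusted p was 0.000884.

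At 12 h Sptlc2 measured 10.72, 10.86 and 10.61 in DMSO and 11.34, 10.77 and 11.25 in LBH589. The groups overlapped at this time because MP567 did not share the difference: the LBH589 array minus the DMSO array was 0.63 in MP525 and 0.64 in MP570 but -0.09 in MP567. The mean difference of 0.39 ± 0.15 was not called (adjusted p = 0.0942) but was called with the block (0.0161), and that call was lost when MP525 or MP570 was left out of the block fit (0.197 and 0.240). It was also called after scaling to reference genes (0.54, adjusted p = 0.0122) and after quantile normalisation (0.45, 0.0446), and without the LBH589 12 h array of MP567 (0.57, 0.0124) or the whole of MP567 (0.63, 0.00986).

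Sptlc1, the subunit common to all forms of the enzyme, measured 9.11, 9.13 and 9.12 in DMSO at 6 h and 9.67, 9.44 and 9.57 in LBH589. All LBH589 arrays were again the higher ones, and the 3 DMSO arrays lay within an SD of 0.01. The difference of 0.44 ± 0.15 (interval 0.11 to 0.76) was not called (limma adjusted p = 0.0675) but was with the block (0.0113), after scaling to reference genes (0.52, 0.0271), and without the LBH589 12 h array of MP525 (0.0257) or MP570 (0.0458), which changes only the shared spread. The call with the block did not hold without MP525 (0.38, adjusted p = 0.05) or MP570 (0.43, 0.0634). At 12 h Sptlc1 measured 8.98, 9.14 and 8.93 in DMSO and 9.63, 9.23 and 9.03 in LBH589. Most of the 12 h difference lay in MP525, at 0.65, against 0.09 in MP567 and 0.10 in MP570. The mean of 0.28 ± 0.15 was not called (limma adjusted p = 0.238, with the block 0.0897). Without the block it was called, just under the threshold, after scaling to reference genes (0.42, 0.0498). With the block it was called after quantile normalisation (0.31, 0.0476) and after scaling to reference genes (0.42, 0.00813).

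Over both times the rise was 0.50 ± 0.11 for Sptlc2 (adjusted p = 0.00343) and 0.36 ± 0.10 for Sptlc1 (0.0221). The Sptlc1 call was lost without the LBH589 6 h array of MP525 (0.0548) or the DMSO 12 h array of MP570 (0.0521), and without MP525 (0.181), MP567 (0.0521) or MP570 (0.0798). With the block it was 0.00306, and 0.0591 without MP525. The Sptlc2 call was lost without MP525 (0.0746) or MP570 (0.0879). The remaining subunit with an own probe set and a test, Sptlc3, differed by -0.05 at 6 h and -0.04 at 12 h, neither called.

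Cers2, the synthase for very-long-chain ceramides, showed the widest gap of the members. It measured 10.67, 10.69 and 10.54 in DMSO at 6 h and 9.10, 9.19 and 9.09 in LBH589 at 6 h. At 12 h it measured 10.52, 10.63 and 10.50 in DMSO and 9.07, 9.03 and 9.12 in LBH589. The treated and control arrays were far apart in every tumour, with group SDs between 0.04 and 0.08. Cers2 fell by 1.50 ± 0.10 at 6 h, 2.83-fold lower (limma adjusted p = 1.44e-05, the 7th lowest p of all tested genes), and by 1.48 ± 0.10 at 12 h, 2.78-fold lower (adjusted p = 1.37e-05, the 8th lowest). The call held without any single array and without any whole tumour, with adjusted p at most 0.0153 at 6 h and 0.00831 at 12 h. Tumour by tumour the difference at 6 h was -1.56, -1.50 and -1.45, and at 12 h -1.45, -1.60 and -1.38.

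The size of the Cers2 change depends on the probe set. The gene has 2, and the results above are those of the brighter, with a mean of 9.84 over the arrays. The dimmer, with a mean of 8.65, measured 8.83, 8.63 and 8.62 in DMSO and 8.45, 8.58 and 8.15 in LBH589 at 6 h, and 9.02, 8.90 and 8.99 against 8.53, 8.42 and 8.70 at 12 h. It was lower with LBH589 in every tumour at both times, and its 12 h groups did not overlap. Fitted with every probe set on its own, it differed by -0.30 at 6 h, which was not called (limma adjusted p = 0.154), and fell by 0.42 at 12 h (0.046). The mean of both probe sets fell by 0.90 at 6 h (adjusted p = 0.000389) and by 0.95 at 12 h (0.000254). Which transcript each probe set reads was not tested.

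**Figure D2:**
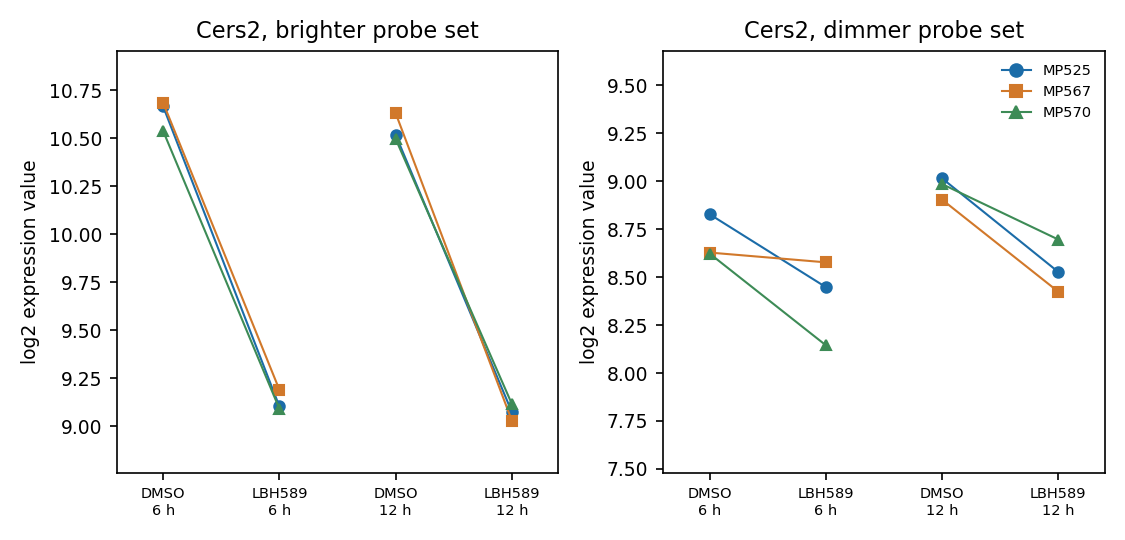
Log2 expression value (vertical axes, of equal span and different position) of the 2 Cers2 probe sets on the 12 arrays by treatment and time (horizontal axis), with lines joining arrays of 1 tumour at 1 time. The brighter probe set drops by 1.50 at 6 h and 1.48 at 12 h, and the dimmer differs in the same direction by 0.30 and 0.42.

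Cers5, which makes mainly palmitoyl ceramides, was the other ceramide synthase with lower values under LBH589. It measured 11.31, 10.79 and 11.43 in DMSO at 6 h and 10.63, 10.08 and 10.63 in LBH589 at 6 h, then 11.12, 10.78 and 11.36 in DMSO at 12 h and 10.69, 9.76 and 10.41 in LBH589 at 12 h. The treated and control groups did not overlap at either time, although MP567 lay well below the other 2 tumours in all 4 groups. The difference was -0.73 ± 0.26 at 6 h (interval -1.30 to -0.16, limma adjusted p = 0.0808) and -0.80 ± 0.26 at 12 h (interval -1.36 to -0.23, adjusted p = 0.0528), neither called. With the tumour block the adjusted p was 6.53e-05 at 6 h and 2.79e-05 at 12 h, and Cers5 remained called at both times with each tumour left out of that fit in turn. Over both times Cers5 fell by 0.76 ± 0.18 (adjusted p = 0.00765), a call lost without MP570 in the fit with no block (0.0960).

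The Cers5 calls without a block sat near the threshold, so several settings moved them. At 6 h Cers5 was called without the LBH589 12 h array of MP567 (adjusted p = 0.0423) or the whole of MP567 (0.0158). At 12 h it was called with arrays centred on their medians (0.0465), with the filter at the 50th percentile (0.0435), without MP567 (0.0176), and without the DMSO 6 h (0.0444), LBH589 6 h (0.0454) or DMSO 12 h (0.0491) array of MP567 or the LBH589 12 h array of MP525 (0.0315). Within tumours the 6 h difference was -0.68, -0.72 and -0.80, and the 12 h difference was -0.43, -1.02 and -0.95, so MP525 had the smallest difference at each time.

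Cers6, the other synthase of palmitoyl ceramides, did not pass the test at either time on the deposited scale. It measured 11.37, 10.97 and 11.74 in DMSO at 6 h, 11.50, 11.09 and 11.93 in LBH589 at 6 h, 11.61, 11.10 and 11.97 in DMSO at 12 h and 11.45, 11.11 and 11.97 in LBH589 at 12 h. The treated and control groups overlapped almost completely, and the tumours kept 1 order throughout. The difference was 0.15 ± 0.29 at 6 h (interval -0.49 to 0.79, limma adjusted p = 0.818) and -0.05 ± 0.29 at 12 h (0.940), where its sign turned under quantile normalisation (0.003) and under scaling to reference genes (0.10). With the block the 6 h difference had an adjusted p of 0.0815, and with the block it was called after quantile normalisation (0.18, 0.0411) and after scaling to reference genes (0.23, 0.0114). The latter setting also called Cers6 over both times (0.16, 0.00708).

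Cers4, which prefers acyl chains between those of the other synthases, measured 7.73, 8.08 and 7.91 in DMSO at 6 h, 7.66, 8.15 and 8.09 in LBH589 at 6 h, 7.81, 7.99 and 7.98 in DMSO at 12 h and 7.90, 8.16 and 8.15 in LBH589 at 12 h. The groups overlapped at both times, and at 6 h MP525 was lower and the other 2 tumours higher with LBH589. The differences of 0.06 ± 0.15 at 6 h (interval -0.26 to 0.38) and 0.14 ± 0.15 at 12 h were not called (limma adjusted p = 0.849 and 0.582, with the block 0.666 and 0.260), and only the block together with scaling to reference genes gave a call at 12 h among the scalings run (0.29, 0.0216).

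The ratios of Cers2, read from its brighter probe set, to the other measured isoforms were lower on the LBH589 arrays. This depends on the probe set. The dimmer one differed by a mean of -0.30 at 6 h and -0.42 at 12 h, less than Cers5 (-0.73 and -0.80). Its mean ratio to Cers5 would therefore be higher with LBH589. Ratios with the dimmer probe set were not tested. Only the change of a ratio with treatment is read, because 2 probe sets do not share a scale. The log2 ratio of Cers2 to Cers6 changed by -1.70, -1.62 and -1.63 in MP525, MP567 and MP570 at 6 h, a mean of -1.65 ± 0.04 (SD over tumours), and by -1.43 ± 0.17 at 12 h. Cers2 to Cers4 changed by -1.57 ± 0.06 at 6 h and -1.62 ± 0.14 at 12 h, and Cers2 to Cers5 by -0.77 ± 0.12 and -0.68 ± 0.30. Cers5 to Cers6 changed by -0.88 ± 0.09 and -0.75 ± 0.41, and Cers4 to Cers5 by 0.79 ± 0.18 and 0.94 ± 0.37. Cers4 to Cers6 changed least, by -0.08 ± 0.10 and 0.19 ± 0.04. All 3 tumours moved the same way in each of the 12 comparisons (6 pairs of isoforms at 2 times). The pairs share the same 4 isoforms, so the comparisons are not independent. Cers4 to Cers6 had opposite signs at 6 h and 12 h, and at 6 h MP570 changed by only -0.009. The two-sided exact permutation test of 3 against 3 arrays cannot go below a p of 0.1. It gave 0.1 in 6 comparisons and 0.2 to 0.6 in the rest, with Benjamini-Hochberg adjusted p of 0.2 to 0.6, so none was called. Comparing within tumours, the exact sign permutation cannot go below 0.25, the value it gave.

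**Figure D3:**
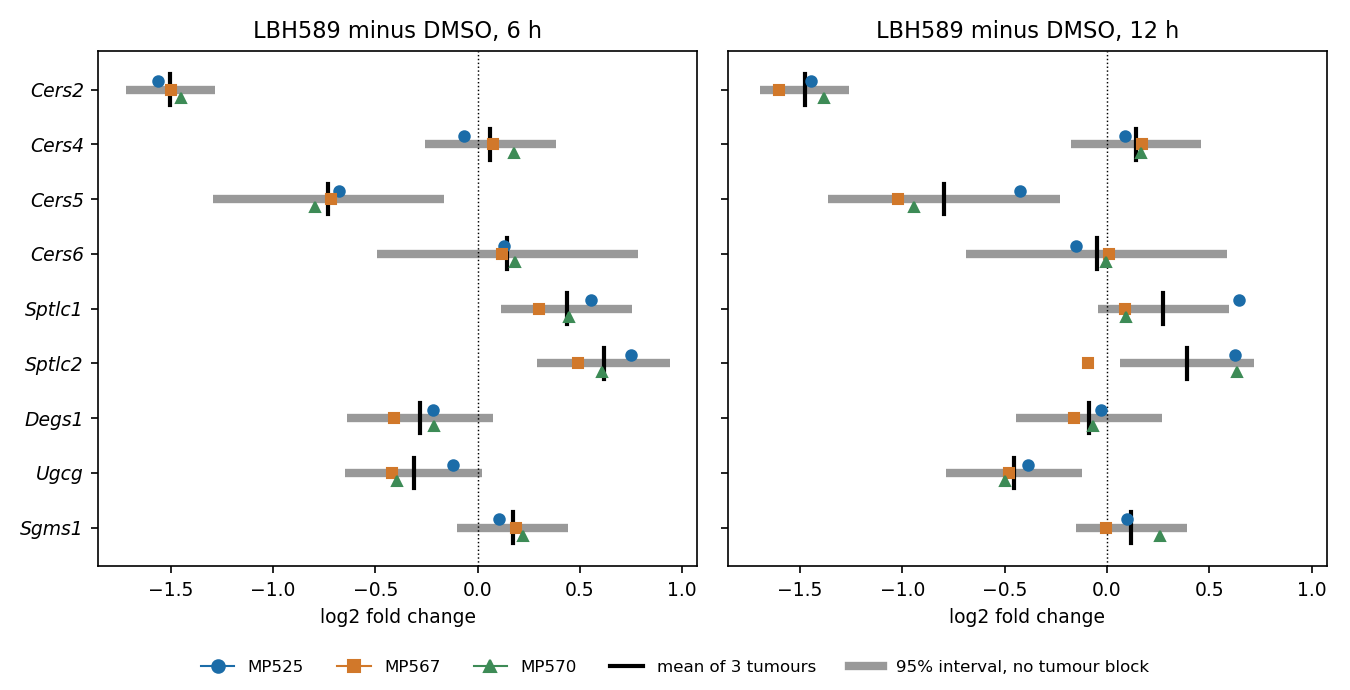
Log2 fold change, LBH589 minus DMSO (horizontal axis), for the 9 members (vertical axis) at 6 h (left) and 12 h (right), with 1 symbol per tumour, a black tick for the mean of the 3 tumours and a grey bar for the 95% interval of the fit without a tumour block. Cers2 lies near -1.5 in every tumour at both times, Cers5 is below 0 throughout, and Sptlc2 in MP567 at 12 h (-0.09) falls on the other side of 0 from MP525 and MP570.

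Degs1, which completes ceramide, measured 10.72, 10.56 and 10.36 in DMSO at 6 h and 10.50, 10.15 and 10.14 in LBH589 at 6 h. At 12 h it measured 10.58, 10.44 and 10.17 in DMSO and 10.55, 10.28 and 10.10 in LBH589. Each tumour was lower with LBH589 than with DMSO, and the groups overlapped at both times. The difference was -0.28 ± 0.16 at 6 h (limma adjusted p = 0.305) and -0.09 ± 0.16 at 12 h (0.785), where scaling to reference genes turned its sign (0.06). With the block it was called at 6 h (0.0112) and not at 12 h (0.436), and the 6 h call was lost without MP525 (0.0526), MP567 (0.0919) or MP570 (0.0569) and with the block after scaling to reference genes (0.0526). Over both times Degs1 differed by -0.18 (0.276), with the block 0.0127, a call lost without MP567 (0.119) or MP570 (0.0543) and after scaling to reference genes (0.306).

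Ugcg, which opens the branch to glycosphingolipids, measured 10.18, 10.75 and 10.60 in DMSO at 6 h and 10.05, 10.34 and 10.20 in LBH589 at 6 h. At 12 h it measured 10.23, 10.50 and 10.44 in DMSO and 9.84, 10.03 and 9.94 in LBH589. The groups overlapped at 6 h, where the DMSO array of MP525 was low, and not at 12 h. The difference was -0.31 ± 0.15 at 6 h (limma adjusted p = 0.211) and -0.46 ± 0.15 at 12 h (interval -0.79 to -0.12, adjusted p = 0.0596), neither called. With the block both were (0.0113 and 0.000779), and the 12 h call held with each tumour left out of the block fit in turn while the 6 h call was lost without MP567 (0.0881) or MP570 (0.147). Over both times Ugcg fell by 0.38 ± 0.11 (adjusted p = 0.0181), a call lost without MP567 (0.0671) or MP570 (0.189) and after scaling to reference genes (-0.27, 0.124).

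Without a block, Ugcg was called at 6 h when the DMSO 6 h array of MP525 was left out (-0.48, limma adjusted p = 0.0488). At 12 h Ugcg was called without the DMSO 6 h array of MP525 (0.0275) or MP567 (0.0491), which are not part of that difference but enter the shared spread, and with the filter at the 50th percentile (0.0449).

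Sgms1, the Golgi enzyme that makes sphingomyelin from ceramide, measured 8.15, 7.97 and 8.23 in DMSO at 6 h, 8.25, 8.16 and 8.45 in LBH589 at 6 h, 8.24, 8.12 and 8.21 in DMSO at 12 h and 8.34, 8.11 and 8.47 in LBH589 at 12 h. The groups overlapped, although all 3 tumours were slightly higher with LBH589 at 6 h. The differences of 0.17 ± 0.12 and 0.12 ± 0.12 were not called (limma adjusted p = 0.426 and 0.585, with the block 0.158 and 0.333). Over both times Sgms1 was called only after scaling to reference genes among the settings run without a block (0.26, 0.0343). The block together with that scaling called Sgms1 at 6 h (0.25, 0.0372), at 12 h (0.27, 0.0237) and over both times (0.00288).

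Counting arrays rather than tests, 4 of the 9 members at 6 h had treated and control groups that did not overlap (44.4%), Cers2 and Cers5 lower and Sptlc1 and Sptlc2 higher, beside 32.9% of all tested genes. At 12 h 3 members did (33.3%), Cers2, Cers5 and Ugcg, all lower, beside 32.0%. At 6 h 4 members were higher with LBH589 in all 3 tumours (Cers6, Sptlc1, Sptlc2 and Sgms1), 4 were lower in all 3 (Cers2, Cers5, Degs1 and Ugcg) and Cers4 was mixed. At 12 h 2 were higher in all 3 (Cers4 and Sptlc1), the same 4 were lower and 3 were mixed. For these counts by tumour the matching share of all tested genes was not taken. Whether the members differ from other genes in this respect was therefore not tested. The median change over the members was 0.06 at 6 h and -0.05 at 12 h, against -0.02 and 0.01 over all tested genes.

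No change with time passed the test in these genes. No member was called for a different LBH589 effect at 12 h than at 6 h, for 12 h against 6 h in DMSO, or for 12 h against 6 h in LBH589 (limma), and none reached an unadjusted p under 0.05 in the fit without a block. With the tumour block none was called either, and 1, 1 and 2 members had an unadjusted p under 0.05. Of all tested genes 0% were called for the difference between times in the LBH589 effect, 0.0214% (4 genes) for time in DMSO and 0% for time in LBH589, with 490, 412 and 1415 genes at an unadjusted p under 0.05, and with the block 2, 58 and 371 genes were called. For Cers2 the effect at 12 h minus that at 6 h was 0.03. In LBH589 Sptlc1 was 0.27 lower and Ugcg 0.26 lower at 12 h than at 6 h, neither called.

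Most members differed in level between tumours. With treatment and time in the fit, 6 of the 9 were called for a difference between the 3 tumours (limma moderated F test), beside 37.4% of all tested genes. The 4 arrays of a tumour are cultures of the same tumour, so this test sets tumours against the spread between cultures. A difference between tumours cannot be told apart here from one between their preparations. Cers6 had the clearest order, with tumour means of 11.48, 11.07 and 11.90 over 4 arrays each (adjusted p = 3.63e-07). Its 4 values lay between 10.97 and 11.11 in MP567, between 11.37 and 11.61 in MP525 and between 11.74 and 11.97 in MP570, with no overlap between tumours. Cers5 means were 10.94, 10.35 and 10.96 (0.000116), with MP567 lowest in each of the 4 groups.

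Degs1 was highest in MP525, with means of 10.59, 10.36 and 10.19 (adjusted p = 0.00121), and Ugcg was lowest in MP525, at 10.07, 10.40 and 10.29 (0.00832). Cers4 was also lowest in MP525, at 7.77, 8.10 and 8.03 (0.0109), where MP567 and MP570 overlap, and Sgms1 lowest in MP567, at 8.24, 8.09 and 8.34 (0.0444). Cers2 had tumour means of 9.84, 9.88 and 9.81 (adjusted p = 0.699), and Sptlc1 and Sptlc2 were likewise not called (0.378 and 0.260). The tumours also differed in marker genes: Atoh1, which marks granule neuron precursors, had means of 11.02, 8.43 and 7.92, and the progenitor gene Sox2 9.13, 8.10 and 6.90. The part of such differences in the members' levels was not tested.

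No member was called for an LBH589 effect that differed between tumours, beside 4.35% of all tested genes, and 2 members had an unadjusted p under 0.05 in this limma F test. The lowest was Sptlc2, with effects over both times of 0.69, 0.20 and 0.62 (adjusted p = 0.0643), which was called without the DMSO 6 h array of MP567 or MP570 or the DMSO 12 h array of MP570. The next was Cers5 (adjusted p = 0.226). A p above the threshold does not show that the tumours responded alike, since 4 residual degrees of freedom were left.

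The genes whose values ran most like each synthase were taken as the 3 tested genes with the highest Pearson correlation over the 12 arrays, which share tumours and treatments. For Cers2 these were Rhobtb3 (r = 0.995), Zmynd11 (0.993) and Cul1 (0.992). For Cers5 they were Gphn (0.975), Rims2 (0.975) and Hgh1 (0.972). For Cers6 they were Pip5k1b (0.979), Trak1 (0.976) and Gprin3 (0.976), and for Cers4 Rbpms (0.924), Slc39a13 (0.917) and Arhgef1 (0.912). Among the members Sptlc1 and Sptlc2 had r = 0.80, Cers2 and Cers5 0.77, Cers2 and Sptlc2 -0.83, and Cers6 and Sgms1 0.80.

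The wider sphingolipid pathway was read from 11 lists of 86 genes, of which 81 had an own probe set. Besides the members 70 were tested. At 6 h 12 of them rose and 7 fell (27.1%, beside 15.8% of all tested genes), and at 12 h 10 rose and 9 fell (27.1%, beside 18.2%). With the block 19 rose and 11 fell at 6 h, beside 34.0% of all tested genes called, and 18 rose and 15 fell at 12 h, beside 37.1%. The median change was 0.04 at 6 h and 0.08 at 12 h. Of the 19 calls at each time, 6 at 6 h and 10 at 12 h held without every single array and every whole tumour. The counts per list below come from short lists. They stand beside the same 15.8% of all tested genes called at 6 h and 18.2% at 12 h.

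Upstream of ceramide, 1 of 3 regulators of serine palmitoyltransferase rose. Ormdl2, whose protein belongs to the ORMDL inhibitors of the enzyme, rose by 0.95 at 6 h (limma adjusted p = 0.000515) and 0.83 at 12 h (0.000859), beside the higher Sptlc2. Ormdl1, of the same list, went the other way, by -0.34 at 6 h and -0.40 at 12 h, neither called. It was called lower over both times (-0.37, 0.0304) and with the block at 12 h (0.0304). In the list of fatty acyl elongation and hydroxylation, which supplies the long acyl chains, 1 of 13 genes rose and 2 fell at 6 h (23.1%). At 12 h 1 rose and 3 fell (30.8%). Hacd1, a dehydratase of the elongation cycle, fell by 1.41 at 6 h (0.000125) and 1.83 at 12 h (2.53e-05). Elovl6, which elongates palmitoyl-CoA, fell by 1.18 at 12 h (0.00294). At 6 h it fell by 0.79 (0.0265). That call was lost without any of 4 single arrays, those of MP525 and MP570 in DMSO and of MP525 and MP567 in LBH589 at 6 h, with adjusted p up to 0.0925, and without tumour MP525 or MP570 (up to 0.214), while the difference stayed between -0.95 and -0.61. With the block its adjusted p at 6 h was 1.42e-06.

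Downstream, the genes that break down or move sphingolipids included several of the larger changes. Among sphingomyelinases 1 of 7 rose and 1 fell at each time, and Smpdl3b, a membrane-anchored sphingomyelinase-like protein, fell by 1.62 at 6 h (limma adjusted p = 0.000639) and 1.66 at 12 h (0.000446). In glycosphingolipid synthesis 2 of 10 fell and none rose at each time. B4galnt1, the GM2 and GD2 ganglioside synthase, fell by 1.65 at 12 h (0.00125) and by 1.40 at 6 h (0.00370, a call lost without MP525, 0.0599).

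In glycosphingolipid breakdown 3 of 9 tested genes rose and 1 fell at each time (44.4%, beside 15.8% of all tested genes at 6 h and 18.2% at 12 h). The lysosomal sialidase Neu1 rose by 0.75 at 6 h (limma adjusted p = 0.000661) and 0.84 at 12 h (0.000295), and Gm2a, the GM2 activator protein, by 1.13 at 12 h (0.000492) and 0.94 at 6 h (0.00169, a call lost without MP525, 0.0532). Galc, which cleaves galactosylceramide, fell by 0.70 at 6 h (0.00130) and 0.67 at 12 h (0.00135). The glycolipid transfer protein gene Gltp rose by 0.71 at 6 h (0.000889) and 0.73 at 12 h (0.000608).

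In sphingosine 1-phosphate metabolism and transport 2 of 9 genes rose and 1 fell at 6 h, and 1 rose and 2 fell at 12 h. That is 33.3% at each time, beside 15.8% and 18.2% of all tested genes. The phosphatase gene Sgpp2 fell by 1.04 at 12 h (limma adjusted p = 9.92e-05) and by 0.63 at 6 h (0.00203, a call lost without MP525 or MP570, up to 0.0534). None of the 5 sphingosine 1-phosphate receptor genes was called at 6 h or 12 h, where 0 and 1 had an unadjusted p under 0.05, and with the block S1pr2 rose by 0.46 at 12 h (0.00175). The calls in Samd8, Smpd1, Acer3, Sgpl1, Sgpp1, Spns2, B4galt6, Gla, Psap, Cptp, Elovl3, Elovl4 and Elovl5 were each lost without at least 1 whole tumour, and most also without single arrays. Of the ceramidases, 1 of 4 tested rose at each time, and of the sphingomyelin synthesis genes 1 of 3.

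**Figure D4:**
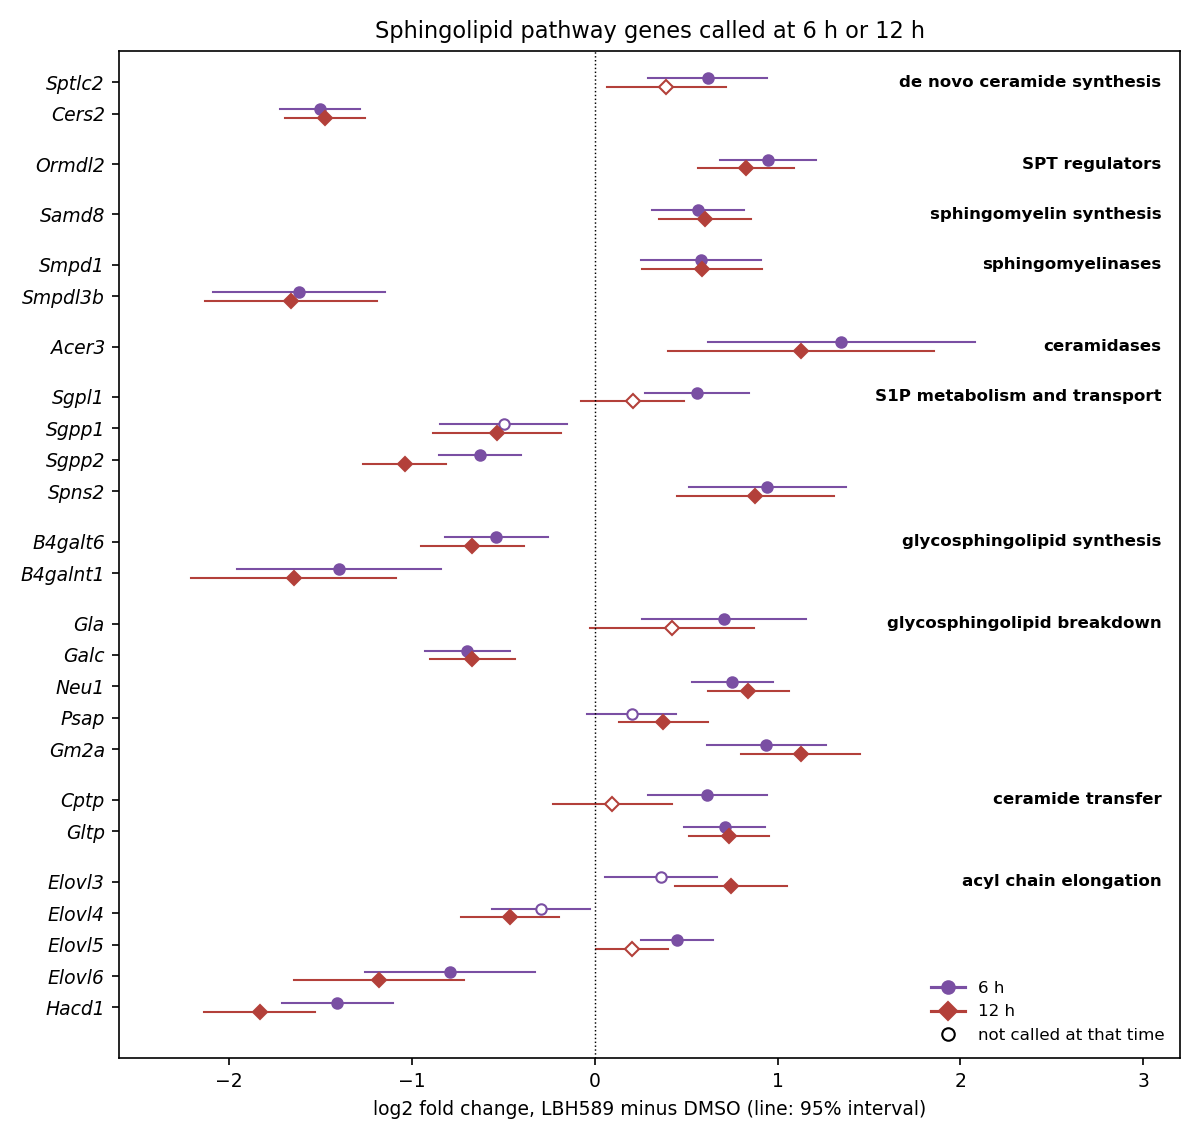
Log2 fold change, LBH589 minus DMSO, with 95% intervals from the fit without a tumour block (horizontal axis) for the sphingolipid pathway genes called at 6 h or 12 h (vertical axis), grouped by list. Filled symbols passed the test at that time and open ones did not. Cers2, Smpdl3b, B4galnt1 and Hacd1 lie furthest to the left, and Acer3 furthest to the right at 6 h.

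Markers of cells other than tumour cells were read because Cers2 and Galc are also genes of myelin-forming cells. For 3 of 4 oligodendrocyte markers with an own probe set the summed level, in log2, was 9.34 to 9.93 in DMSO and 9.35 to 9.73 in LBH589 at 6 h, and 9.47 to 9.83 and 9.50 to 9.84 at 12 h. These ranges overlapped, and none of the 3 markers was called or had an unadjusted p under 0.05 at 6 h or 12 h (limma). For the 5 microglia and macrophage markers the sums were 9.96 to 9.98 and 9.87 to 10.21 at 6 h and 9.77 to 10.24 and 9.96 to 10.33 at 12 h, and Cd68 alone was called, at 12 h (0.71, adjusted p = 0.0129). With the block Ptprc (-0.71, 0.0111) and Itgam (-0.47, 0.0314) were called lower at 12 h. The 4 astrocyte markers summed to 10.12 to 10.50 and 9.81 to 10.40 at 6 h and to 9.96 to 10.40 and 9.71 to 10.42 at 12 h, with none called or at an unadjusted p under 0.05 without the block and 1 and 2 called with it, Slc1a3 lower at each time and Gfap higher at 12 h. The 4 endothelial markers summed to 9.83 to 10.32 and 10.12 to 10.47 at 6 h and 9.48 to 10.38 and 9.94 to 10.53 at 12 h, and Kdr rose at 6 h and at 12 h, with Pecam1 also called higher at 12 h with the block (0.28, 0.0490).

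The markers of the tumour itself did not move one way. The 7 Group 3 markers summed to 11.40 to 12.09 in DMSO and 10.63 to 10.87 in LBH589 at 6 h, and to 11.33 to 11.99 and 10.61 to 10.98 at 12 h, without overlap. Npr3 fell by 1.63 and 1.61 at the 2 times (limma adjusted p = 0.00165 and 0.00146) and was the only one of the 7 called without the block. With the block Gabra5 was also called lower, at 6 h (-0.65, 0.0276). The sum adds the linear values of different probe sets and the value of Npr3 weighs most in it, and Myc differed by 0.09 and 0.21, not called. Of the 5 neural progenitor markers Msi1 fell at each time and Prom1 at 12 h. With the block Prom1 was also called lower at 6 h (0.0127), and Nes was called higher at 6 h (0.77, 0.0322) and 12 h (1.19, 0.00220), as was Olig2 (0.63, 0.00404, and 0.42, 0.0379). Of the neuronal markers Syt1 rose at each time and Rbfox3 fell at 12 h. With the block Rbfox3 was also called lower at 6 h (0.0234) and Snap25 higher at each time (0.00139 and 0.00593), while Gabra6 was below the 25th percentile on all 12 arrays. None of the 4 granule neuron precursor markers was called or had an unadjusted p under 0.05 at 6 h or 12 h without the block (with it Barhl1, Zic1 and Zic2 were called lower at 6 h and Zic2 at 12 h), and their sums were 11.87 to 13.09 and 11.66 to 12.26 at 6 h and 11.85 to 13.01 and 11.83 to 12.44 at 12 h. The part of these marker changes in the members' values was not tested.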

How the data were processed

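Total RNA from 12 cultures was hybridised to whole-transcript mouse gene arrays, per the labels' protocols. The values are log2 expression values per probe set as deposited by the authors, from 1.50 to 14.47. Summarisation and normalisation are not given in the sources used here; the 1 tool in the submitters' processing notes is Agilent Feature Extraction 10.7.3.1, which reads arrays of another manufacturer. Because array medians differed by under 0.2, values were used as deposited. Of 41345 probe sets, 23521 name 1 gene, 1814 several and 16010 none, by the platform's annotation with symbols updated through Entrez identifiers. Genes above an array's 25th percentile (5.94 to 6.04) on at least 3 arrays were tested, all 9 members among them.

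Genes were tested with limma 3.58.1 under R 4.3.3, by lmFit and a trended eBayes, on 4 group means with 8 residual degrees of freedom, a procedure tested on simulated data. Ratios of isoforms used exact permutation tests in scipy 1.17.1. The planned 20 ratio tests became 12 without Cers1. The array number limits precision: each group has 3 arrays, and in the fit without a block p-values measure the spread between 3 tumours. With the block, and in the F tests on tumours, they measure the spread left once each tumour's level is taken out, that is, between cultures of the same tumours. Same-numbered arrays come from the same tumour, per the labels. Deviations from group means correlated at 0.45 to 0.80 in the 18 pairs of arrays from 1 tumour and at -0.51 to -0.06 between tumours, so the fit with the tumour as a replicate block (6 residual degrees of freedom) is given for each member and marker whose call it changes, and as counts for the other pathway genes. Other alternatives were a random block, 3 scalings, filters, probe-set rules, no trend, and leaving out each array or tumour.

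The members and lists were chosen with earlier results of these data known. All members are named, and from the pathway lists any gene called at 6 h or 12 h could be, together with the 3 genes most correlated with each synthase. Promoters come from RefSeq (GRCm38.p6).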

Additional observations from a re-analysis of the deposited data

Results flagged for a closer look

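Of 32 named results screened, 2 differed between tumours in their LBH589 effect by limma's moderated F test over both times. The ganglioside synthase gene B4galnt1 had effects of -1.90 in MP525, -0.999 in MP567 and -1.67 in MP570 (adjusted p = 0.00162), lower in 3 of 3 tumours. The sphingosine 1-phosphate exporter gene Spns2 had effects of 0.55 in MP525, 1.13 in MP567 and 1.06 in MP570 (adjusted p = 0.0299), higher in 3 of 3 tumours. Groups of 3 arrays were not screened for single outlying arrays.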

How the results depend on the processing

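Values of members and called pathway genes were recomputed under the alternatives, 1985 in all. Of these 1785 kept their side of the threshold, 95 passed it only under the alternative and 105 only in the reported fit. No called value changed sign. Some values not called in either fit did, such as Cers6 and Degs1 at 12 h after scaling to reference genes. The number of members called at 6 h was 2, and was 6 with tumour as a fixed replicate block, 5 with it as a random replicate block and 3 with arrays centred on reference genes. At 12 h it was 1, and was 4 with either replicate block, 2 after quantile normalisation, 2 with arrays centred on their medians, 3 with arrays centred on reference genes and 3 with the filter at the 50th percentile. Leaving out single arrays or tumours gave 1 to 3 members at 6 h, 1 to 3 at 12 h and, over both times, 1 to 5 (1 without MP570, 3 without MP525 or MP567), against 5. For the LBH589 effect between tumours it gave 0 to 1, Sptlc2, against 0. The block with another scaling, and with 1 tumour left out, were chosen after seeing the data. Over all tested genes the fixed replicate block raised the calls from 2948 to 6333 at 6 h, from 3395 to 6928 at 12 h and from 5607 to 8566 over both times. Calls at 12 h, 1703 higher and 1692 lower as reported, were 1770 and 1535 after quantile normalisation. They were 1477 and 1693 with medians centred and 3022 and 975 with reference genes. At 6 h reference genes gave 2027 and 926, against 1584 and 1364. For the random block, the filter and the omissions such counts are not given, so their member counts lack that background. The cause of these differences was not tested. The array number, 3 a group, limits what can be called. In the fit without a block the 95% interval of the Cers6 difference at 6 h, -0.49 to 0.79, includes a rise of the size seen in Sptlc2. That interval also carries the differences in level between tumours. With the block the SE of the Cers6 difference was 0.061, against 0.292 without it. Within MP525, MP567 and MP570 the difference was 0.131, 0.122 and 0.185.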

Other observations

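Some other sphingolipid genes differed widely in level between tumours, and were picked here after their values were seen. The ceramide kinase gene Cerk had means over 4 arrays of 9.95 in MP525, 8.46 in MP567 and 9.33 in MP570 (limma moderated F test, adjusted p = 2.01e-07). Elovl1, an elongase that supplies the very-long-chain acyl-CoAs used by Cers2, had means of 10.20, 9.45 and 10.08 (adjusted p = 4.78e-06), and Elovl7 7.52, 6.43 and 6.63 (1.87e-05). The non-lysosomal glucosylceramidase gene Gba2 had means of 9.31, 10.06 and 9.77 (1.11e-05). Cerk and Elovl1 were not called for LBH589 at either time with or without the tumour block. Gba2 was called higher with LBH589 over both times (0.62, adjusted p = 0.0314), and with the block at 6 h (1.65e-05) and 12 h (0.000246). Elovl7 was not called without the block at either time and was called higher with it (0.0245 and 0.0253). MP567 had the lowest mean in Cerk and Elovl1, as it did for Cers5. MP525 and MP570 lay close together in Elovl1 and Cers5 but not in Cerk.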
